A study of Mus musculus with 18 samples.

Results

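The proteasome genes of mouse plasmacytoid dendritic cells (pDCs) are described here across imiquimod treatment, vehicle and time. Members were the protein-coding genes of the count table whose symbol is Psm, then a letter from a to g, then a digit. This rule gave 50 of 54532 genes and used no measured value. It takes in the 20S core subunits, the 19S regulator, the activators, an inhibitor and the assembly chaperones. It also takes in Psmc3ip (Hop2), a meiotic recombination factor named for binding Psmc3, which is not a proteasome gene, and Psme2b, a copy of Psme2. Of the 50 members, 48 had counts enough to be tested.

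The mice were wild-type C57BL/6, and their marrow was cultured for 7 days with 80 ng/mL of Flt3 ligand, the growth factor that drives dendritic cell development. Beads against B220 were used to enrich the pDCs, with a purity of 80% as a routine figure, so other cells were sequenced with them. The 6 groups of 3 libraries were imiquimod at 6 h, imiquimod at 16 h, vehicle at 0, 6 and 16 h, and untreated cells at 0 h. Imiquimod, which activates the endosomal RNA sensor TLR7, was given at 2.5 µg/mL. The vehicle is given as LAL, spelled out as Limulus amebocyte lysate, and it is not stated if the lysate or water of the grade used with it was meant. Whether the 3 libraries of a group stem from different animals or cultures is not stated, so each p-value rests on a spread among libraries that could be technical.

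The proteasome degrades proteins marked with ubiquitin. Its 20S core is a barrel of alpha and beta rings, and only some beta subunits cut. Psmb5, Psmb6 and Psmb7 are the constitutive cutting subunits. Interferon and other inflammatory signals induce Psmb8, Psmb9 and Psmb10, which take their places in newly built cores and form the immunoproteasome. The 19S regulator recognises, unfolds and feeds ubiquitinated proteins into the core, while the PA28 activator, a ring of Psme1 and Psme2 products, opens the core without ubiquitin. Both changes alter the peptides available for MHC class I molecules, and dendritic cells are known for a high basal immunoproteasome content.

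Total counts per library ran from 10609741 to 13447018, and 14876 genes were tested. Members held 0.468 to 0.587% of the counts in imiquimod libraries and 0.258 to 0.329% in vehicle libraries. Levels are CPM, library-size scaled counts, with TMM scaling, and fold changes are log2 values with a standard error (SE). Calls were made with edgeR's quasi-likelihood test, where the p adjusted by Benjamini-Hochberg over all 14876 genes was under 0.05. All 10 pDC markers were detected above 1 CPM in each group. Their summed level was 6155 to 6391 CPM with imiquimod and 7209.8 to 7369 CPM with vehicle at 6 h, and 4306 to 4386 CPM against 8793 to 8891 CPM at 16 h. Irf8 was the highest of them, with a mean of 1807 CPM with imiquimod and 2261 CPM with vehicle at 6 h. Its means at 16 h were 1622 CPM and 2378 CPM. Markers listed for other cells moved too, and single genes made up much of some of these sums. The 5 cDC1 markers summed to 523 to 549.8 CPM with imiquimod and 1233 to 1245 CPM with vehicle at 6 h. Wdfy4 had a mean of 396 CPM and 959 CPM of these. The 6 monocyte and macrophage markers, led by Ccr2, summed to 157 to 163 CPM with imiquimod and 1568 to 1702 CPM with vehicle at 6 h. Ccr2 alone had a mean of 71.1 CPM with imiquimod and 1323 CPM with vehicle. Of these 6 markers, 5 reached a mean of 1 CPM with imiquimod and 4 with vehicle, so the list did not fall as a whole. The 5 B cell markers summed to 163 to 175 CPM against 96.7 to 108 CPM. Pax5 was highest in imiquimod libraries, with a mean of 112 CPM, and Cd79b in vehicle libraries, with 27.7 CPM. The higher sum thus rests on Pax5, and the list did not rise as a whole. At 16 h the cDC1 markers summed to 489.9 to 526 CPM with imiquimod and 1094 to 1132 CPM with vehicle. The monocyte and macrophage markers then summed to 62.4 to 71.1 CPM against 1983 to 2061 CPM, and the B cell markers to 183 to 194 CPM against 104 to 129 CPM. With imiquimod at 16 h Pax5 had a mean of 133 CPM, while the highest B cell marker with vehicle, Cd79b, had 29.7 CPM. Of the 5 cDC2 markers, Sirpa was highest, and the list summed to 149 to 155 CPM with imiquimod and 282 to 296 CPM with vehicle at 6 h, and to 123 to 125 CPM against 283 to 291 CPM at 16 h. Cd209a of that list had no count in imiquimod libraries at 16 h. The 6 T and NK cell markers stayed at or below 12.6 CPM in sum and the 5 neutrophil markers at or below 1.41 CPM. In bulk RNA, fewer cells of a type and less RNA per cell cannot be told apart, and the part of these shifts in the proteasome results was not tested.

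The promoters of the 5 inducible members and of Psmb5 are shown because these genes rose in the same libraries but by different amounts. Each runs from 250 bases before the start site to 30 bases after it, 5′ to 3′ on the gene's strand, from RefSeq on GRCm38.p6. Capitals mark matches, on either strand, to the core of the interferon-stimulated response element (ISRE, bound by IRF factors) or TGANNNNGC (the core bound by Nfe2l1 and Nfe2l2 with Maf partners).
Psmb8: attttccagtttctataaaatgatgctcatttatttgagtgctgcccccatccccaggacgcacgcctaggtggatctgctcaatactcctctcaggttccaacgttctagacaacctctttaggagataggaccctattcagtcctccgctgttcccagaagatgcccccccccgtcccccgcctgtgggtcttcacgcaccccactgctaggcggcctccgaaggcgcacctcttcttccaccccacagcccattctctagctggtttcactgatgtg
Psmb9: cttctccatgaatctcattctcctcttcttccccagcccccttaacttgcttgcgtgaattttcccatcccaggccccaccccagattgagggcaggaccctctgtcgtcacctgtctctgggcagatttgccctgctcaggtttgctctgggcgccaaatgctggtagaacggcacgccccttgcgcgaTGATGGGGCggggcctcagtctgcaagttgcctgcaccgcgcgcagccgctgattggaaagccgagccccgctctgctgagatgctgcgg
Psmb10: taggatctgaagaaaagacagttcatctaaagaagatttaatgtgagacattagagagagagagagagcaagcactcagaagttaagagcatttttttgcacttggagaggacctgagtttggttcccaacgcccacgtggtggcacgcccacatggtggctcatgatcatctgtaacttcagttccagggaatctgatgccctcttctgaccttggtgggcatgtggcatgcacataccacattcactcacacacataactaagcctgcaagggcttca
Psme1: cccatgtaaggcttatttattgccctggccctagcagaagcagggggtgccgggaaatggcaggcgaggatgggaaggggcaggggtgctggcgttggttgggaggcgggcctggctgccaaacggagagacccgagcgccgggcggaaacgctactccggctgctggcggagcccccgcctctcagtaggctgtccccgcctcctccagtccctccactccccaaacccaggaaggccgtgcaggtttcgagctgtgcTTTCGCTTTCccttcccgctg
Psme2: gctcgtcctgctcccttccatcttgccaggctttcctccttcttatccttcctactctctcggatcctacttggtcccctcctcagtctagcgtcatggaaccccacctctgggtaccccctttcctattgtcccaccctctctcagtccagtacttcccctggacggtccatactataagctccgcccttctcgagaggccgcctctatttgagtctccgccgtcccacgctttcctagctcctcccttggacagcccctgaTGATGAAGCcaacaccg
Psmb5: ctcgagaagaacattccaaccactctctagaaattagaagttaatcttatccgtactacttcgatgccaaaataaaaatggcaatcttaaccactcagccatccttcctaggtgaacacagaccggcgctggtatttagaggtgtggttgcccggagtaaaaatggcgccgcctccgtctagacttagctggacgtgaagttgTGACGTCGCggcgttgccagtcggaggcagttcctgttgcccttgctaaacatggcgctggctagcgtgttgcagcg
These windows lie at chr17:34197945-34198224 (Psmb8), chr17:34187301-34187580 (Psmb9), chr8:105938363-105938642 (Psmb10), chr14:55578244-55578523 (Psme1), chr14:55591072-55591351 (Psme2) and chr14:54617966-54618245 (Psmb5). Of 42 members with a RefSeq promoter, 5 held the ISRE core in at least 1 promoter, against 3.8% of 27025 genes counted the same way over windows of the same length. TGANNNNGC was in 21 of 42 members and 42.7% of genes. The kappa B core, which NF-kappaB binds, was in 24 of 42 members and 51.7% of genes. It is not capitalised, and in Psmb9 1 of its matches overlaps the capitalised one. Among the 5 inducible genes, the ISRE core was found in Psme1, and TGANNNNGC in Psmb9 and Psme2. Psmb8 and Psmb10 held neither capitalised motif in this window. A match describes letters and is not evidence of binding.

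Nearly the whole module was higher with imiquimod than with vehicle. At 6 h, 43 of 48 tested members were higher with imiquimod than with vehicle and 0 were lower, where 37.7% of all tested genes were higher and 39.2% lower. At 16 h, 46 of 48 were higher and 0 lower, against 39.1% and 38.1% of all tested genes. The median log2 fold change of the members was 0.85 at 6 h and 1.19 at 16 h, beside -0.04 and -0.00 over all tested genes. At least 2-fold rises were seen in 15 members at 6 h and 33 at 16 h, where 16.2% and 16.6% of all tested genes rose as much. In sum, the 50 members held 5746 ± 79 CPM with imiquimod and 2792 ± 147 CPM with vehicle at 6 h (SD, n = 3 each). At 16 h the sum was 5665 ± 121 CPM with imiquimod and 2546 ± 28.4 CPM with vehicle. The 2 comparisons use separate libraries, and 41 members were higher in both, as were 28.1% of all tested genes. TMM factors of imiquimod libraries at 6 h were 0.8174 to 0.8374, and 1.006 to 1.066 in the others. Scaled by library totals instead, 36 members were higher and 4 lower at 6 h, while the median of all genes moved by -0.35 and the members stayed 0.89 above it.

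**Figure D1:**
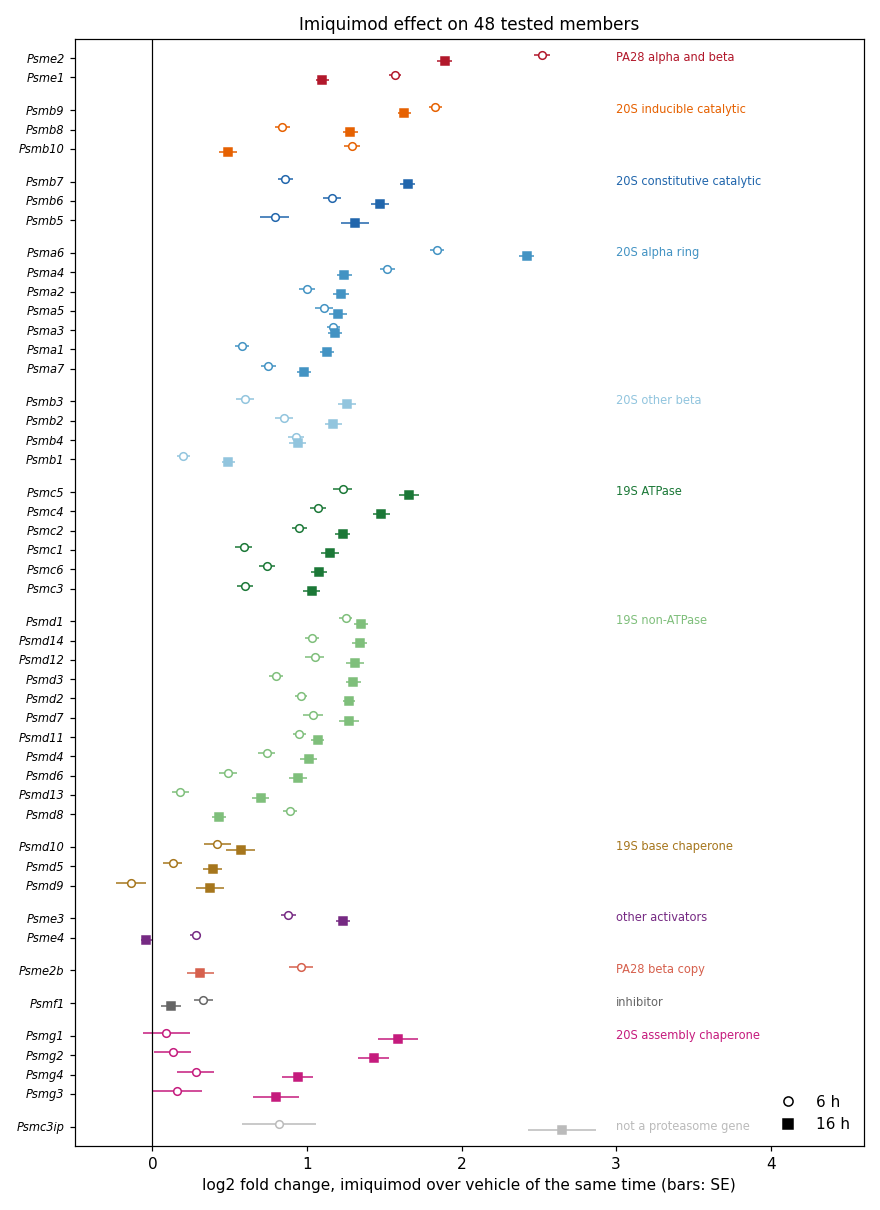
Log2 fold change of imiquimod over vehicle of the same time for each tested member, at 6 h (open circles) and 16 h (filled squares), with SE bars, grouped by role. Most points lie between 0.5 and 1.7, with Psme2 at 2.52 at 6 h and Psmc3ip at 2.65 and Psma6 at 2.42 at 16 h farthest right, and Psme4 at -0.04 at 16 h and Psmd9 at -0.14 at 6 h left of 0.

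Psmb9 rose most among the inducible cutting subunits, and Psmb8, already the highest of them in vehicle cells, had its larger rise at 16 h. Psmb9 (ENSMUSG00000096727.2, mm10 chromosome 17, 34181987 to 34187764, minus strand) replaces Psmb6. It had 250.0, 264 and 253 CPM with imiquimod at 6 h, against 68.9, 76.3 and 70.4 CPM with vehicle. The 16 h levels were 224, 218 and 233 CPM with imiquimod, against 75.1, 72.1 and 71.6 CPM with vehicle. The imiquimod libraries lay above all vehicle libraries at both times, by 1.83 (SE 0.041, adjusted p = 2.35e-54) and 1.63 (SE 0.042, adjusted p = 2.20e-50).

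Psmb8 (ENSMUSG00000024338.14, chromosome 17, 34197721 to 34201454, plus strand) replaces Psmb5. It had 272, 268 and 268 CPM with imiquimod at 6 h, against 137, 168 and 146 CPM with vehicle. At 16 h its levels were 336, 317 and 347 CPM with imiquimod and 139.9, 131 and 141 CPM with vehicle. The groups did not overlap at either time, and the rise was 0.84 at 6 h (SE 0.049, adjusted p = 6.45e-17) and 1.28 at 16 h (SE 0.049, adjusted p = 3.38e-22). Psmb8 shares 9.97% of its 75-base windows, and 498 bases of exon on the other strand, with Gm20496. The strand setting of the counting is not given in the sources used here.

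Psmb10 (ENSMUSG00000031897.9, chromosome 8, 105935735 to 105938444, minus strand), which replaces Psmb7, rose more at 6 h than at 16 h. It had 117, 117 and 123 CPM with imiquimod at 6 h, against 42.5, 53.2 and 50.6 CPM with vehicle. At 16 h the imiquimod libraries had 68.6, 66 and 73.1 CPM and the vehicle libraries 49.4, 48.4 and 49.6 CPM. The groups stayed apart at both times, by 1.29 (SE 0.054, adjusted p = 1.08e-35) and by 0.49 (SE 0.057, adjusted p = 1.99e-12). Within imiquimod cells, at 16 h against 6 h, Psmb10 fell by 0.78 (SE 0.051, adjusted p = 1.30e-23) and Psmb8 rose by 0.31 (SE 0.046, adjusted p = 4.64e-07).

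**Figure D2:**
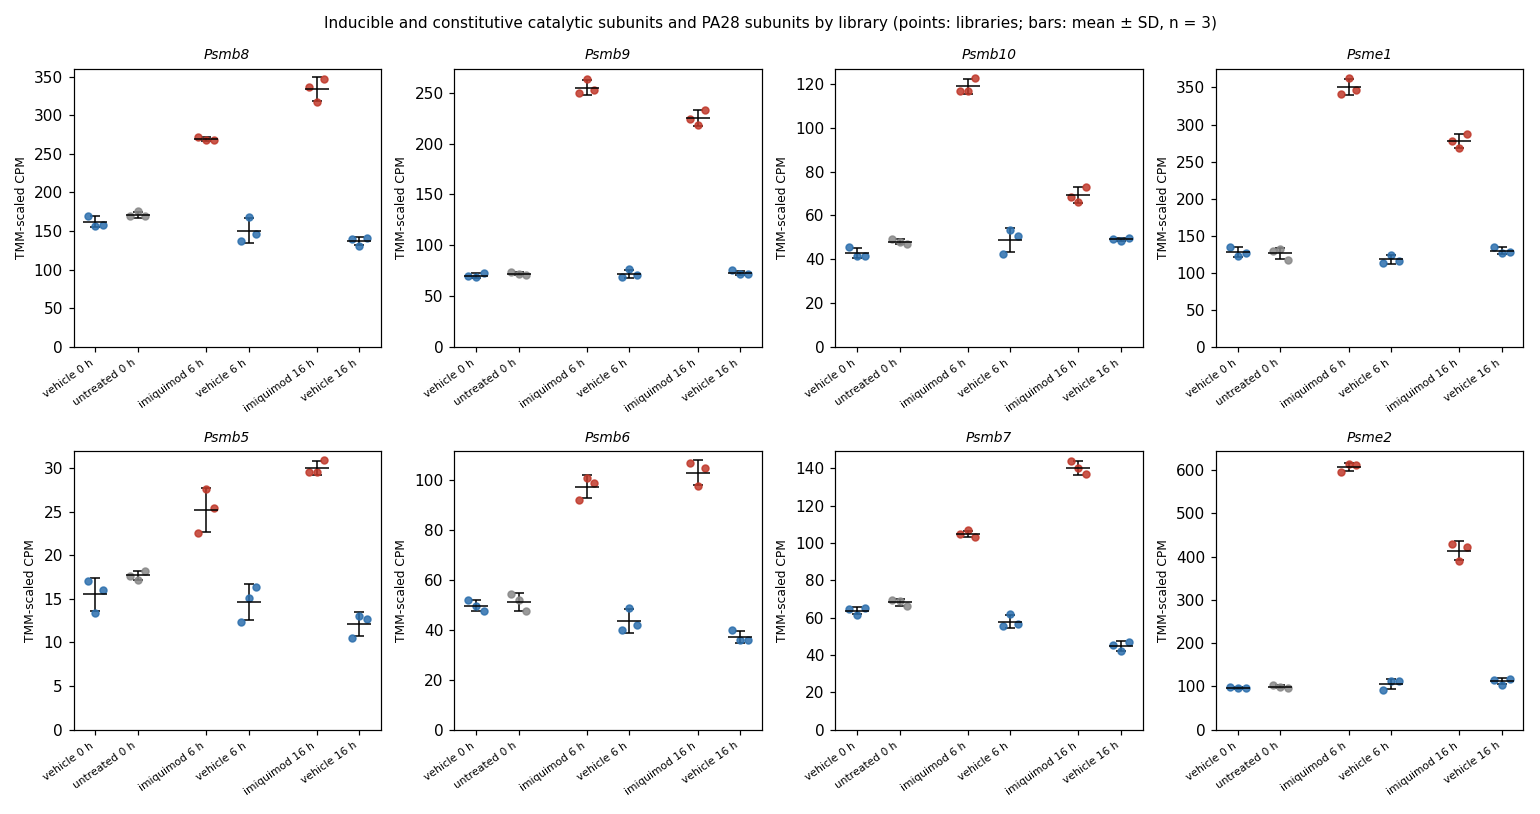
TMM-scaled CPM of 8 members in each library, by group, with the mean ± SD of 3 libraries. Psmb8, Psmb9, Psmb10, Psme1 and Psme2 are the inducible genes and Psmb5, Psmb6 and Psmb7 the constitutive cutting subunits; in all 8 panels the imiquimod libraries lie above the vehicle libraries of the same time, and Psmb10 and Psme2 are lower with imiquimod at 16 h than at 6 h.

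Both PA28 subunits rose, and Psme2 by far the more. Psme2 (ENSMUSG00000079197.10, chromosome 14, 55587441 to 55591113, minus strand), the PA28 beta subunit, had 596, 614 and 612 CPM with imiquimod at 6 h, against 92.5, 113 and 112 CPM with vehicle. Its 16 h levels were 429.9, 390.3 and 422 CPM with imiquimod, against 114, 104 and 117 CPM with vehicle. No library of one group reached the other, and the log2 fold change was 2.52 at 6 h (SE 0.051, adjusted p = 8.37e-28) and 1.89 at 16 h (SE 0.051, adjusted p = 2.30e-24). The value at 6 h was the highest of the 48 tested members. Of its 75-base windows, 22.9% are shared with Psme2b, so some reads could belong to either gene.

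Psme1 (ENSMUSG00000022216.17, chromosome 14, 55578123 to 55581529, plus strand), the alpha subunit, had 341, 363 and 347 CPM with imiquimod and 113, 124 and 116 CPM with vehicle at 6 h. Later, at 16 h, Psme1 had 278, 268 and 287 CPM with imiquimod and 135, 126 and 128 CPM with vehicle. Its groups were also separate at both times, at 1.57 (SE 0.041, adjusted p = 2.61e-47) and 1.10 (SE 0.041, adjusted p = 2.10e-37). The count ratio of Psme2 to Psme1 was 1.73 with imiquimod and 0.897 with vehicle at 6 h, and 1.49 against 0.86 at 16 h. On the log2 scale the ratio was higher by 0.95 and 0.79, with all imiquimod libraries above all vehicle libraries. An exact permutation test of 3 libraries against 3 cannot go below p = 0.1, and both two-sided p were 0.1. Over the 8 ratio tests made here, the Benjamini-Hochberg adjusted value of each exact p of 0.1 was 0.133, and those of Psmb8 to Psmb5 were 0.8 at 6 h and 0.9 at 16 h.

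The constitutive cutting subunits rose as well, at both times. Psmb5 (ENSMUSG00000022193.7, chromosome 14, 54614119 to 54618022, minus strand) had 22.5, 27.6 and 25.4 CPM with imiquimod at 6 h, against 12.4, 15.1 and 16.4 CPM with vehicle. The 16 h libraries had 29.5, 29.6 and 30.9 CPM with imiquimod, against 10.5, 13 and 12.7 CPM with vehicle. It rose by 0.79 (SE 0.093, adjusted p = 5.67e-12) and 1.31 (SE 0.093, adjusted p = 4.79e-22), without overlap of the groups. Gm3375 shares 36.8% of the windows of Psmb5 together with Mir686, so its level is uncertain.

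Psmb6 (chromosome 11, 70525367 to 70527858, plus strand) had 92.3, 101 and 98.8 CPM with imiquimod and 39.9, 48.9 and 42.1 CPM with vehicle at 6 h. Psmb6 at 16 h had 107, 97.6 and 105 CPM with imiquimod and 39.8, 35.9 and 35.9 CPM with vehicle. The groups lay apart at both times, with rises of 1.16 (SE 0.058, adjusted p = 7.83e-29) and 1.47 (SE 0.059, adjusted p = 1.87e-34). Psmb7 (chromosome 2, 38588036 to 38644087, minus strand) had 105, 107 and 103 CPM with imiquimod and 55.5, 61.8 and 56.5 CPM with vehicle at 6 h. At 16 h its imiquimod libraries had 144, 140.3 and 137 CPM and its vehicle libraries 45.1, 42 and 47.1 CPM. Psmb7 had the largest late rise of the 3 constitutive subunits, 1.65 (SE 0.049, adjusted p = 5.56e-46) after 0.86 at 6 h (SE 0.049, adjusted p = 1.33e-27), again without overlap. It shares 7.83% of its 75-base windows, and 405 bases of exon on the other strand, with Nek6.

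Set within each library, the inducible and constitutive partners moved differently from pair to pair. The log2 ratio of Psmb8 to Psmb5 was 3.42 ± 0.16 with imiquimod and 3.36 ± 0.18 with vehicle at 6 h (SD, n = 3 each), with overlapping groups and an exact two-sided permutation p of 0.7. At 16 h it was 3.47 ± 0.048 with imiquimod and 3.51 ± 0.21 with vehicle, again overlapping (exact permutation p = 0.9). A difference in this ratio was not detectable with these libraries, and its sign changed when single libraries were left out. The log2 ratio of Psmb9 to Psmb6 was 1.39 ± 0.042 with imiquimod and 0.72 ± 0.075 with vehicle at 6 h, and 1.12 ± 0.05 against 0.97 ± 0.05 at 16 h. All imiquimod libraries lay above all vehicle libraries at both times (exact permutation p = 0.1, the smallest possible).

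The pair of Psmb10 and Psmb7 changed sides. Its log2 ratio was 0.18 ± 0.061 with imiquimod and -0.25 ± 0.12 with vehicle at 6 h, and -1.02 ± 0.1 with imiquimod against 0.14 ± 0.064 with vehicle at 16 h. At 0 h the ratio was -0.57 ± 0.073 with vehicle and -0.50 ± 0.013 in untreated cells. The vehicle ratio thus rose over time, and this rise is part of the difference at 16 h. The imiquimod libraries were all above the vehicle libraries at 6 h and all below them at 16 h (exact permutation p = 0.1 each, the smallest possible). As a count ratio, there were 0.493 Psmb10 counts for each Psmb7 count with imiquimod at 16 h, and 1.1 with vehicle. Over the 6 cutting subunits, per kilobase of principal transcript, the inducible genes made up 64.9 ± 0.71% with imiquimod and 60.2 ± 0.21% with vehicle at 6 h. At 16 h this share was 59.9 ± 0.83% with imiquimod and 64.1 ± 0.043% with vehicle, and it was 57.7 ± 0.18% with vehicle and 57.8 ± 0.72% in untreated cells at 0 h. The share was thus higher in imiquimod than in vehicle libraries at 6 h and lower at 16 h, without overlap either time. The pairs did not move alike at 16 h. The difference in log2 ratio was -1.16 for Psmb10 to Psmb7, -0.04 for Psmb8 to Psmb5 and 0.15 for Psmb9 to Psmb6. The lower pooled share at 16 h is thus not a fall in every pair. Psmb5, whose level is uncertain because 36.8% of its windows are shared, is part of the total. With lengths of the union of exons the share was 66.5 ± 1% against 62.1 ± 0.44% at 6 h and 60.8 ± 0.72% against 65.8 ± 0.48% at 16 h.

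**Figure D3:**
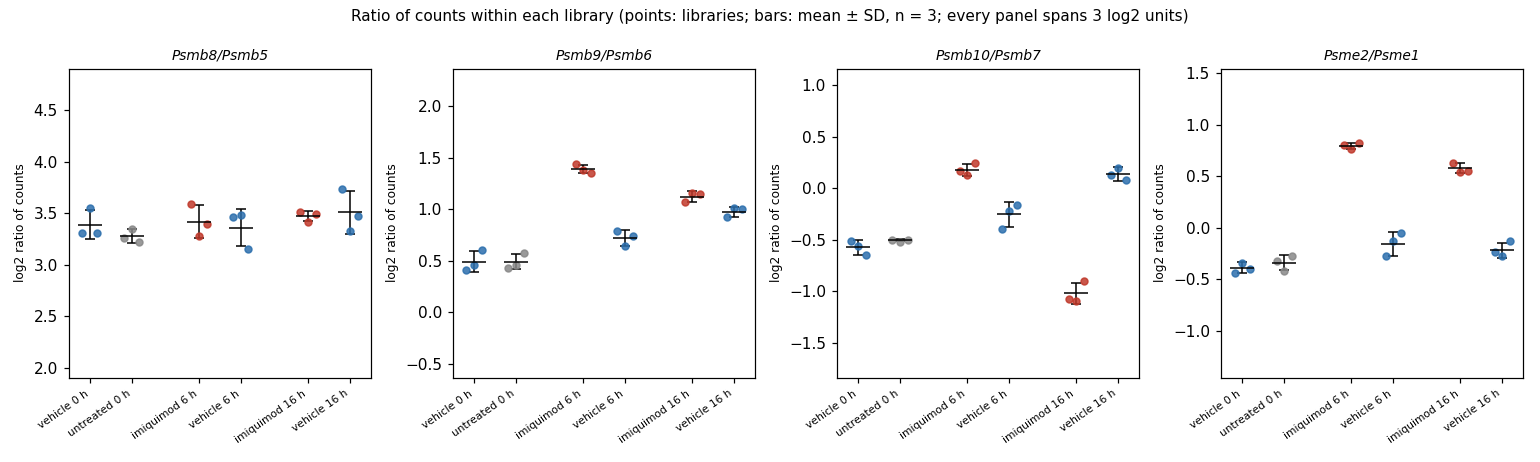
Log2 ratio of counts within each library for 4 pairs of genes, by group, with the mean ± SD of 3 libraries. Psmb8/Psmb5 stays between 3.15 and 3.74 in all libraries, while Psmb10/Psmb7 with imiquimod is 0.18 at 6 h and -1.02 at 16 h.

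The structural 20S subunits rose together, led by Psma6. All 7 alpha ring genes and all 4 other beta genes were higher at both times. Psma6 (ENSMUSG00000021024.14, chromosome 12, 55384222 to 55418454, plus strand), an alpha ring subunit, had 197, 206 and 207 CPM with imiquimod at 6 h, against 53.5, 60.9 and 55.6 CPM with vehicle. At 16 h it had 259, 247 and 252 CPM with imiquimod, against 47.1, 46.5 and 48.2 CPM with vehicle. The groups were far apart, and Psma6 rose by 1.84 (SE 0.045, adjusted p = 9.95e-52) and 2.42 (SE 0.046, adjusted p = 2.65e-59). None of its 75-base windows is shared with another gene.

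The next alpha gene at 6 h was Psma4, with 162, 158 and 162 CPM with imiquimod and 53.1, 54.6 and 59.7 CPM with vehicle, a rise of 1.52 (SE 0.047, adjusted p = 8.09e-45). At 16 h Psma4 had 124, 119 and 122 CPM with imiquimod and 53, 46.8 and 55.1 CPM with vehicle, a rise of 1.24 (SE 0.049, adjusted p = 1.43e-37). The smallest alpha rise was 0.58 for Psma1 at 6 h and 0.98 for Psma7 at 16 h. Psmb1, a beta subunit that does not cut, moved least of the 20S genes. It had 124, 122 and 121 CPM with imiquimod and 104, 112 and 102 CPM with vehicle at 6 h, a rise of 0.20 (SE 0.043, adjusted p = 1.33e-05) that became -0.15 when libraries were scaled by their totals. At 16 h Psmb1 rose by 0.49 (SE 0.041, adjusted p = 2.94e-18). Of the other beta genes, Psmb4 led at 6 h with 0.93 and Psmb3 at 16 h with 1.26. Psma5 and Psma3 share 35.2% and 14.3% of their windows with processed copies or other genes, and Psmb3 shares 10.3%.

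Subunits of one complex differed in measured RNA level per length. Per kilobase of principal transcript, the 31 constitutive 20S and 19S genes ranged from 28 CPM per kilobase (Psmb5) to 195 (Psma6) with imiquimod at 6 h, with a median of 66.6. With vehicle at 6 h they ranged from 16.3 (Psmb5) to 82.5 (Psmb4), with a median of 38.6. At 16 h the range was 33.4 to 243 with imiquimod and 13.4 to 69.2 with vehicle, with the same genes at the ends as at 6 h. Of these 31 genes, Psma6 thus had the highest level per length in imiquimod cells, while Psmb4 did in vehicle cells. The low end is less certain, since 36.8% of the 75-base windows of Psmb5 are shared with Gm3375 and Mir686. It also depends on the length used. Per kilobase of the union of exons, with vehicle at 6 h, Psmb5 was at 16.3 and Psmc2 at 11.1.

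The 19S regulator rose as a unit, with few exceptions in size. All 6 ATPase genes and all 11 non-ATPase genes were higher at both times, with medians of 0.85 and 0.95 at 6 h and 1.19 and 1.27 at 16 h. Psmc5, an ATPase of the ring that unfolds substrates, rose most of its class. It had 68.5, 71.3 and 68.3 CPM with imiquimod and 26.4, 30.3 and 32 CPM with vehicle at 6 h, and 78.8, 70.2 and 75.7 CPM against 22.2, 25.9 and 23.1 CPM at 16 h. The groups did not overlap, and it rose by 1.23 (SE 0.063, adjusted p = 2.10e-30) and 1.66 (SE 0.065, adjusted p = 5.87e-38). The smallest ATPase rise was 0.59 for Psmc1 at 6 h and 1.03 for Psmc3 at 16 h.

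Psmd1, a large scaffold subunit of the 19S base, led the non-ATPase genes. It had 195, 202 and 196 CPM with imiquimod at 6 h, against 76.4, 88.9 and 83.2 CPM with vehicle, a rise of 1.25 (SE 0.043, adjusted p = 5.30e-42). At 16 h it rose by 1.35 (SE 0.043, adjusted p = 1.13e-43), with 197, 198 and 185 CPM with imiquimod and 77.7, 73.2 and 77.4 CPM with vehicle. Psmd14, the deubiquitinase of the 19S lid, rose by 1.03 (SE 0.046, adjusted p = 6.79e-34) and 1.34 (SE 0.047, adjusted p = 3.20e-41). Psmd4, a ubiquitin receptor, rose by 0.74 (SE 0.055, adjusted p = 9.26e-21) and 1.01 (SE 0.055, adjusted p = 3.90e-28).

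At the low end, Psmd13 of the 19S lid had 66.1, 66.3 and 69.4 CPM with imiquimod and 54.1, 62.7 and 61.4 CPM with vehicle at 6 h, a rise of 0.18 (SE 0.054, adjusted p = 0.00195) that became -0.17 with library totals. Psmd8, also of the lid, had a smaller rise at 16 h than at 6 h. It had 172, 173 and 178 CPM with imiquimod at 6 h, against 86.7, 97.7 and 97.3 CPM with vehicle, and rose by 0.89 (SE 0.044, adjusted p = 3.22e-31). At 16 h it had 115, 111 and 113 CPM with imiquimod, against 78.9, 81.9 and 89.8 CPM with vehicle, and rose by 0.43 (SE 0.046, adjusted p = 9.84e-14).

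The 4 members that act as 20S assembly chaperones responded late. Psmg1 to Psmg4 encode the assembly factors PAC1 to PAC4, which set up the alpha ring. At 6 h Psmg4 was higher, by 0.28 (SE 0.12, adjusted p = 0.0263), and Psmg1, Psmg2 and Psmg3 did not pass the test, at 0.09, 0.13 and 0.16 (adjusted p = 0.608, 0.304 and 0.376 from edgeR). With library totals Psmg4 was at -0.07. At 16 h all 4 were higher. Psmg1 had 14.3, 14.6 and 12.7 CPM with imiquimod at 16 h, against 4.32, 5.05 and 4.44 CPM with vehicle, while at 6 h it had 6.37, 5.61 and 5.4 CPM against 5.37, 4.63 and 6.4 CPM. Its groups overlapped at 6 h and lay wide apart at 16 h, where it rose by 1.59 (SE 0.13, adjusted p = 1.03e-18). Psmg2 had 21.6, 20 and 22.9 CPM with imiquimod and 8.54, 8.16 and 7.22 CPM with vehicle at 16 h, a rise of 1.43 (SE 0.1, adjusted p = 6.79e-22). Psmg4 rose by 0.94 (SE 0.1, adjusted p = 7.61e-14) and Psmg3 by 0.80 (SE 0.15, adjusted p = 1.74e-06). The means of these 4 genes lay between 4.45 and 21.5 CPM in the imiquimod and vehicle groups of 6 h and 16 h. Pomp, an assembly factor outside the symbol rule, did not share this timing. It rose by 0.31 at 6 h (SE 0.045, adjusted p = 7.31e-09) and by 0.15 at 16 h (SE 0.046, adjusted p = 0.00332). Library totals moved the median of all genes by -0.35 at 6 h, more than the size of that first rise.

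The chaperones of the 19S base changed less. Psmd10 rose by 0.42 at 6 h (SE 0.088, adjusted p = 2.04e-05) and by 0.57 at 16 h (SE 0.092, adjusted p = 6.38e-08). Psmd5 was at 0.13 (adjusted p = 0.0578) and Psmd9 at -0.14 (adjusted p = 0.186, edgeR) at 6 h. Both rose at 16 h, by 0.39 (SE 0.06, adjusted p = 1.45e-08) and 0.37 (SE 0.091, adjusted p = 0.000177). Psmd9 shares 24.3% of its windows, and 1849 bases of exon, with Gm26745 on the other strand.

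The other activators split. Psme3, which forms the nuclear PA28 gamma ring, had 127, 137 and 131 CPM with imiquimod and 73.5, 67.5 and 73.5 CPM with vehicle at 6 h. Psme3 at 16 h had 160.2, 159.7 and 156 CPM with imiquimod, against 65.8, 65.7 and 71.6 CPM with vehicle. It rose by 0.88 (SE 0.046, adjusted p = 3.37e-30) and 1.23 (SE 0.045, adjusted p = 6.99e-40). Psme4, the PA200 activator, had 195, 190.1 and 191 CPM with imiquimod and 155, 166 and 154 CPM with vehicle at 6 h. That rise of 0.28 (SE 0.037, adjusted p = 2.62e-10) was -0.07 with library totals, and at 16 h Psme4 was at -0.04 (adjusted p = 0.373). Psmf1, known as the inhibitor PI31 and as a proteasome transport adaptor, had 43.4, 48.8 and 45.4 CPM with imiquimod and 38, 33.8 and 37.5 CPM with vehicle at 6 h. It rose by 0.33 (SE 0.062, adjusted p = 1.83e-06), which was -0.02 with library totals, and was at 0.12 at 16 h (adjusted p = 0.0677).

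The remaining members stand apart from the working particle. Psme2b had 40.1, 40.2 and 39.3 CPM with imiquimod and 19.8, 22.5 and 18.9 CPM with vehicle at 6 h, a rise of 0.96 (SE 0.076, adjusted p = 1.15e-19), and rose by 0.31 at 16 h (SE 0.086, adjusted p = 0.00086). Of its windows, 60.2% are shared with Psme2, so its counts may include reads of Psme2. Psmc3ip rose by 0.82 at 6 h (SE 0.24, adjusted p = 0.00133) and 2.65 at 16 h (SE 0.22, adjusted p = 2.59e-18). It had 7.31, 6.01 and 8.74 CPM with imiquimod at 16 h, against 0.919, 1.15 and 1.39 CPM with vehicle, and shares 16% of its windows with Mlx on the other strand. The untested members were Psma8, the alpha subunit of the testis proteasome, with 10 or fewer counts over the 3 libraries of any group, and Psmb11, the thymic cutting subunit, with 1 count in all 18 libraries.

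The effect of imiquimod, taken over vehicle of the same time, grew between 6 h and 16 h for most subunits and shrank for most inducible genes. The difference of the effects, 16 h minus 6 h, was higher for 33 of 48 tested members and lower for 9, where 28.5% and 28.4% of all tested genes were called each way and 56.9% in either direction. Of the 31 constitutive 20S and 19S genes, 24 had a larger effect at 16 h, with a median difference of 0.32, and Psma4 and Psmd8 had a smaller one. Psmb7 had the largest increase of these, 0.79 (SE 0.07, adjusted p = 7.21e-17). Within imiquimod cells the median change of the 31 genes from 6 h to 16 h was 0.11, with 18 called higher and 3 lower. Of all tested genes, 31.9% and 31.8% were called there. The sum of the 31 with vehicle was 1907 ± 101 CPM at 6 h and 1662 ± 17 CPM at 16 h. Their larger effect at 16 h is thus in part a lower vehicle level. Of the 5 inducible genes, Psmb10, Psme2, Psme1 and Psmb9 had a smaller effect at 16 h, by -0.79 (SE 0.079, adjusted p = 1.71e-14), -0.63 (SE 0.073, adjusted p = 1.13e-08), -0.47 (SE 0.058, adjusted p = 4.85e-11) and -0.20 (SE 0.06, adjusted p = 0.0025). Psmb8 had a larger one, 0.44 (SE 0.069, adjusted p = 1.64e-06). The chaperones Psmg1 and Psmg2 had the largest increases of the proteasome genes, 1.50 (SE 0.21, adjusted p = 1.49e-09) and 1.30 (SE 0.16, adjusted p = 2.85e-11). With library totals, 40 members were higher and 4 lower, since the median of all genes moved by 0.33, and Psmb9 was then at 0.13.

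**Figure D4:**
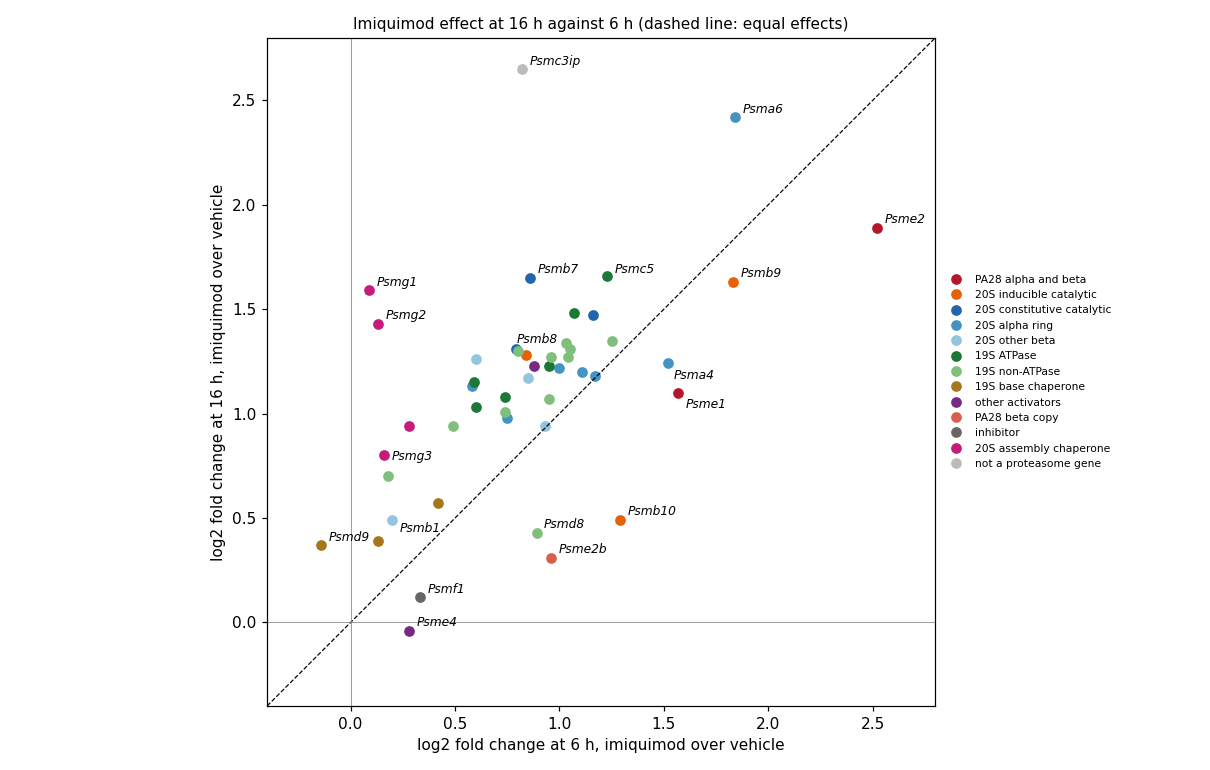
Log2 fold change of imiquimod over vehicle at 16 h against that at 6 h, 1 point per tested member, coloured by role, with a dashed line of equal effects. Most subunits lie above the line, the 4 20S assembly chaperones at its left, and Psme2, Psme1, Psmb9, Psmb10, Psma4 and Psmd8 lie below it.

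Within imiquimod cells, 27 members were higher and 10 lower at 16 h than at 6 h, where 31.9% and 31.8% of all tested genes were called. This comparison shares its libraries with those above. The inducible genes summed to 1319.6 ± 54.1 CPM at 16 h and 1601 ± 23.9 CPM at 6 h with imiquimod, and the 31 constitutive 20S and 19S genes to 3802 ± 77.7 CPM and 3618 ± 54.6 CPM (SD, n = 3 each). With library totals, 38 members were higher and 5 lower.

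In vehicle cells most constitutive subunits were lower at 16 h than at 0 h. The 31 constitutive 20S and 19S genes summed to 2107 ± 44.9 CPM at 0 h, 1907 ± 101 CPM at 6 h and 1662 ± 17 CPM at 16 h with vehicle. Against vehicle at 0 h, 24 members were lower and 2 higher at 6 h, where 26.9% and 26% of all tested genes were called, and 16 members were lower without vehicle 6 h replicate 1. At 16 h, 36 were lower and 3 higher, where 30% and 28.4% of all tested genes were called. Both times share the libraries at 0 h. Psmd13, the lowest of the 31 at 16 h, fell by 0.55 (SE 0.055, adjusted p = 1.90e-14), and Psma6 by 0.52 (SE 0.053, adjusted p = 7.00e-14). Psmb10, Psme2 and Psme2b were higher at 16 h than at 0 h, by 0.20 (SE 0.062, adjusted p = 0.00445), 0.20 (SE 0.058, adjusted p = 0.00357) and 0.52 (SE 0.097, adjusted p = 3.72e-06). The inducible genes summed to 499 ± 17.4, 495 ± 41 and 501 ± 16.8 CPM at 0, 6 and 16 h. Imiquimod cells at 16 h, at 3802 ± 77.7 CPM for the 31 constitutive genes, were also above vehicle cells at 0 h, at 2107 ± 44.9 CPM.

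The vehicle at 0 h and untreated cells could not be told apart by the members. By edgeR 0 of 48 members were called in either direction, as were 0% of all tested genes, and 3 members had an unadjusted p under 0.05, where 4.76% of all tested genes did. DESeq2 called 0 members and gave 2 an unadjusted p under 0.05. The 50 members summed to 3045 ± 67.8 CPM with vehicle at 0 h and 3116 ± 51.5 CPM in untreated cells.

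**Figure D5:**
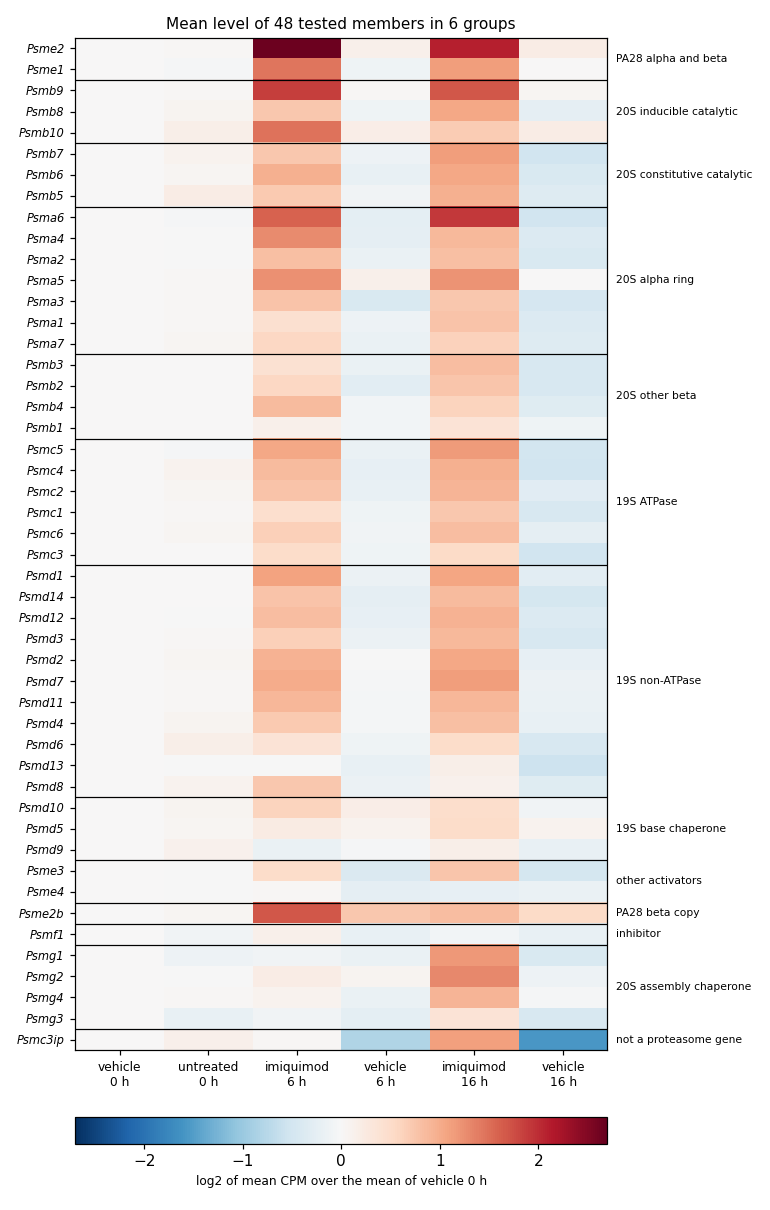
Log2 of the mean CPM of each tested member over its mean with vehicle at 0 h, for the 6 groups, with red higher and blue lower. Columns of imiquimod at 6 h and 16 h are red for most genes, vehicle at 16 h is pale blue for most constitutive genes, and the 20S assembly chaperones are red with imiquimod at 16 h and pale at 6 h.

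Genes that work with the proteasome but lie outside the symbol rule moved less evenly. Of 32 such genes (assembly factors, bound deubiquitinases, ubiquitin shuttles, transcription factors and ubiquitin genes), 29 were tested, of which 24 were higher and 3 lower at 6 h, and 24 higher and 3 lower at 16 h. Of all tested genes, 37.7% were higher and 39.2% lower at 6 h, and 39.1% and 38.1% at 16 h. The median log2 fold change of the 29 was 0.66 at 6 h and 0.50 at 16 h, beside -0.04 and -0.00 over all tested genes. Nfe2l1, a transcription factor that induces proteasome subunits when the proteasome is impaired, had 369.9 ± 2.04 CPM with imiquimod and 117 ± 4.73 CPM with vehicle at 6 h. It rose by 1.66 (SE 0.037, adjusted p = 1.50e-54) and at 16 h by 1.13 (SE 0.038, adjusted p = 2.65e-42). Ddi2, the protease that activates the Nfe2l1 protein, fell by 1.02 (SE 0.037, adjusted p = 5.55e-40) and by 1.24 (SE 0.037, adjusted p = 4.70e-46). Zfand2a, a stress-induced proteasome-binding protein, rose by 1.52 and 1.11 (SE 0.075 and 0.084), and Vcp, the segregase that unfolds ubiquitinated substrates, by 1.16 at both times (SE 0.04). Txnl1, a thioredoxin bound to the 19S, rose by 0.93 and 1.17 (SE 0.061 and 0.059).

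The peptide transporter genes beside the inducible subunits were also higher with imiquimod. The RefSeq start sites of Tap1 (34187556) and Psmb9 (34187330) on chromosome 17 lie 226 bases apart, and the genes run away from each other. Tap1 rose by 1.97 at 6 h (SE 0.034, adjusted p = 8.95e-63) and 1.77 at 16 h (SE 0.034, adjusted p = 6.11e-59). Tap2, the partner of Tap1 and the neighbour of Psmb8, rose by 1.38 (SE 0.061, adjusted p = 2.43e-14) and 1.05 (SE 0.062, adjusted p = 3.28e-12). All 5 class I loading genes listed were higher at both times, where 37.7% of all tested genes were higher at 6 h and 39.1% at 16 h. The lowest of them was Erap1, a peptide-trimming enzyme, at 0.20 at 6 h (SE 0.041, adjusted p = 8.33e-06) and 0.43 at 16 h (SE 0.039, adjusted p = 4.66e-17). By the GENCODE M21 coordinates, in which Psmb9 reaches to 34187764, Psmb9 and Tap1 share 212 bases of exon on opposite strands.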

How the data were processed

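The data are 18 RNA-seq libraries in 6 groups of 3. For each gene the authors deposited a raw count, which was taken unchanged. Reads were aligned to mm10 with STAR, per the submitters' processing notes. How reads were counted (program, strand setting, reads with more than 1 match, annotation release) is not given in the sources used here. Libraries were depleted of rRNA and made with a directional kit, per the labels' protocols. Members and lists were chosen with earlier results of these data known.

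All 6 groups were fitted in 1 edgeR 4.0.16 model (R 4.3.3; quasi-likelihood, robust, TMM, filterByExpr with a minimum count of 10), which tested 14876 genes. SE is the absolute log2 fold change over the square root of F. Ratios were taken from counts within a library and tested by exact two-sided permutation. Depth was 10609741 to 13447018 counts per library, and counting error is part of the spread between libraries. GENCODE M21 gave coordinates (97.6% of versioned identifiers matched, and all 50 members), exon overlaps, and shared windows of 75 bases, the read length. Promoters are from RefSeq. Every member could be named; the 5 inducible genes and Psmb5, Psmb6 and Psmb7 always, with the highest and lowest of each class, and the 6 associated genes with the largest called change, of which 1 is not reported here. Alternatives tried were scaling by DESeq2 size factors or by library totals, no expression filter or one of 1 CPM in 3 libraries, the replicate number as a block, fitting only the groups compared, DESeq2 1.42.0, and leaving out each library; ratios were also taken with 0.5 counts added. The share of inducible subunits by union-of-exons length and the naming of Pomp were chosen after seeing the data. The fit was tested on simulated data in which a small part of the genes changed, in 1 group. It does not test the scaling where most genes are called, as at 6 h. Between libraries of a group the chi-square per gene was 1.335 to 10.7, so no library repeated the counts of another. These values cannot tell if libraries of a group were technical repeats. The 10.7 was between vehicle 6 h replicates 1 and 2.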

Additional observations from a re-analysis of the deposited data

Results flagged for a closer look

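The effect of imiquimod differed between 6 h and 16 h for 42 of 48 tested members, by edgeR's test of the difference itself, and that test picked them out for a second look. The values here are log2 differences of the effects, 16 h minus 6 h, and change of the vehicle level is part of them. Among the alpha ring genes they were 0.56 (Psma1), 0.23 (Psma2), -0.29 (Psma4), 0.57 (Psma6) and 0.23 (Psma7). The beta subunits that do not cut gave 0.28 (Psmb1), 0.32 (Psmb2) and 0.66 (Psmb3). Constitutive cutting subunits gave 0.52 (Psmb5), 0.32 (Psmb6) and 0.79 (Psmb7), and the inducible ones 0.44 (Psmb8), -0.20 (Psmb9) and -0.79 (Psmb10).

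The 19S ATPases gave 0.56 (Psmc1), 0.28 (Psmc2), 0.44 (Psmc3), 0.41 (Psmc4), 0.42 (Psmc5) and 0.34 (Psmc6). The non-ATPase genes gave 0.32 (Psmd2), 0.50 (Psmd3), 0.27 (Psmd4), 0.45 (Psmd6), 0.24 (Psmd7), -0.46 (Psmd8), 0.26 (Psmd12), 0.52 (Psmd13) and 0.32 (Psmd14). The base chaperones gave 0.26 (Psmd5) and 0.51 (Psmd9).

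Activator genes gave -0.47 (Psme1), -0.63 (Psme2), 0.34 (Psme3) and -0.32 (Psme4), with -0.65 for the copy Psme2b and -0.21 for the inhibitor Psmf1. The 20S assembly chaperones gave 1.50 (Psmg1), 1.30 (Psmg2), 0.65 (Psmg3) and 0.66 (Psmg4), and Psmc3ip, no proteasome gene, gave 1.83. Of all tested genes, 56.9% differed in this test.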

How the results depend on the processing

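Scaling by library totals, which takes away the TMM factors of the imiquimod libraries at 6 h, moved the results that use those libraries. It moved the median of all genes by -0.35 in the comparison at 6 h, by 0.33 for the difference of the effects and by 0.30 for imiquimod at 16 h against 6 h. The share of all calls that were higher was then 31.1% at 6 h (49% with TMM), 75.5% for the difference (50.1%) and 74.6% for 16 h against 6 h (50%). Members called lower became 4 at 6 h, 4 for the difference and 5 for 16 h against 6 h, in place of 0, 9 and 10. Among members called with TMM, those that changed sign were, at 6 h, Psmf1 at -0.02, Psmd13 at -0.17, Psme4 and Psmg4 at -0.07 and Psmb1 at -0.15. For the difference they were Psmf1 at 0.13, Psma4 at 0.05, Psme4 at 0.02 and Psmb9 at 0.13, and for 16 h against 6 h Psmf1 at 0.10, Psmb4 at 0.06, Psme4 at 0.04 and Psmb9 at 0.11.

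Without an expression filter, 4 members in place of 2 were higher with vehicle at 6 h than at 0 h; the cause was not tested. Leaving out 1 library at a time, that count ran from 1 (without vehicle 6 h replicate 2) to 5 (without vehicle 6 h replicate 1), and the count of members lower from 16 to 27. Members lower at 6 h with imiquimod ran from 0 to 1, with the 1 seen without imiquimod 6 h replicate 3. The difference in the log2 ratio of Psmb8 to Psmb5 ran from -0.05 to 0.13 at 6 h and from -0.13 to 0.07 at 16 h.

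Deviations of same-numbered libraries correlated at -0.269 to 0.11, so a pairing by replicate number was not seen. With 3 libraries a group this cannot exclude a pairing. With the replicate number as a block, members higher and lower were 43 and 0 at 6 h, 46 and 0 at 16 h, 33 and 9 for the difference, 25 and 10 for 16 h against 6 h with imiquimod, 2 and 24 and then 3 and 36 for vehicle at 6 h and 16 h, and 0 and 0 for vehicle against untreated cells.

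With 3 libraries a group, an exact test of a ratio cannot pass 0.05. The purity of 80%, the moving markers listed for other cells, shared sequence of 24 members and the strand setting limit what single values mean. RNA levels say nothing of protein or of assembled particles.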

Other observations

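The nearest tested protein-coding genes on each side of the 5 inducible members and of Psma6 were looked up after the members' values were seen. Of all tested genes, 37.7% were higher and 39.2% lower at 6 h, and 39.1% and 38.1% at 16 h. Nfkbia, the NF-kappaB inhibitor gene, is the nearest tested protein-coding gene on the higher coordinate side of Psma6, 70956 bases away, and rose by 3.85 at 6 h (SE 0.042, edgeR adjusted p = 8.54e-77) and 3.15 at 16 h (SE 0.044, adjusted p = 9.76e-69). On the other side of Psma6, 1689 bases away, 1110008L16Rik was at -0.31 (SE 0.11, adjusted p = 0.0094) and 0.48 (SE 0.097, adjusted p = 7.78e-06). Psme1 and Psme2 lie on the 2 sides of Emc9, a gene of the membrane protein insertase, which rose by 1.12 at 6 h (SE 0.12, adjusted p = 1.32e-13) and 0.42 at 16 h (SE 0.14, adjusted p = 0.00484). On the other side of Psme1, Dcaf11 was at 0.47 at 6 h (SE 0.047, adjusted p = 5.3e-15) and 0.03 at 16 h (adjusted p = 0.584). Rnf31, a subunit of the linear ubiquitin ligase, begins 595 bases from Psme2 and rose by 1.33 (SE 0.047, adjusted p = 7.13e-41) and 0.87 (SE 0.049, adjusted p = 4.07e-28). H2-DMb1, on the lower coordinate side of Psmb9, rose by 0.54 (SE 0.041, adjusted p = 1.13e-20) and 0.24 (SE 0.042, adjusted p = 4.53e-07). Both neighbours of Psmb10 rose at 6 h, Ctrl by 1.23 (SE 0.4, adjusted p = 0.00421) and Slc12a4 by 0.49 (SE 0.088, adjusted p = 6.46e-07), and at 16 h were at 0.94 (adjusted p = 0.063) and 0.19 (adjusted p = 0.0557).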
